A study of Homo sapiens with 8 samples.

Results

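The comparison described here is that of MDA-MB-231 cells given the compound 1-S and kept dark with cells given the solvent and kept dark, both in round 2 of the study. It rests on 2 of the 8 sequenced libraries, 1 on each side. MDA-MB-231 is an established cell line from a human triple-negative breast tumour. 1-S is (2-dibenzothienylmethyl)triphenylphosphonium. It lacks the oxo group of the related sulfoxide 1-SO, and triphenylphosphonium is a lipophilic cation often used to carry molecules into mitochondria. The 1-S dark group received 10 µM 1-S for 24 h and no light, and the vehicle dark group 1% DMSO and no light. The 1-S UV-A and vehicle UV-A groups of the same round were also exposed for 30 min to UV-A lamps emitting between 325 and 375 nm. Round 2 used cells at passage 32 to 34. Round 1 used cells at passage 8 for its own vehicle libraries and for 10 µM 1-SO over 24 h. In round 1 the vehicle and 1-SO cells were likewise either kept dark or exposed to UV-A for 30 min. Nothing in the labels says whether wells were separate cultures, so p-values measure only the spread between these samples, which may be technical.

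The 1-S dark library held 21.8 M counted reads and the vehicle dark library of round 2 held 22.6 M, within a range of 15.8 to 22.6 M over all 8. At least 1 read fell on 24644 genes in 1-S dark, on 22495 in vehicle dark and on 21009 to 23114 in the other 6 libraries. The labelled identity was checked against its markers. Of 10 MDA-MB-231 markers 9 reached 1 FPKM (counted reads scaled to a gene's length and to the library's total) in both dark libraries, and the exception was SPARC at 0.128 and 0.0569. Of 10 luminal and epithelial markers, 6 reached 1 FPKM in vehicle dark and 7 in 1-S dark, with summed levels of 174 and 153 FPKM. The keratin KRT8 was at 74.02 and 47.4 FPKM and KRT18 at 55.1 and 29.6, both of which fell, while the luminal factor FOXA1 rose from 0.812 to 2.08. The hormone receptor genes ESR1 and PGR and the cadherin gene CDH1 lay at 0.00325 to 0.14 FPKM. Of 13 markers of blood, endothelial, stromal and liver cells, 4 were at 0 reads in vehicle dark and 5 in 1-S dark, with DCN and HBB at 0 in both, and their summed level was 2.69 and 8.27 FPKM. COL1A1, a collagen chain of fibroblasts and of some tumour cells, carried most of that, at 1.45 and 7.09 FPKM. The other 12 markers did not exceed 0.923 FPKM in either library, and their part in the results was not tested.

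As background, cells meet misfolded protein with the heat shock response. The factor HSF1 then binds repeats of the unit GAA, in alternating orientation, and drives genes for chaperones, which refold proteins or hand them on for breakdown. A second programme, the integrated stress response, starts when the initiation factor eIF2 is phosphorylated, which slows most translation but raises that of the transcription factor ATF4 and so its targets. Mitochondrial distress is one of the known triggers of ATF4 in cultured human cells.

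Cells with 1-S in the dark showed a large rise of heat shock genes, of ATF4 targets and of immediate early genes, and a fall of genes of DNA replication, the citric acid cycle and glycolysis. A test with edgeR's quasi-likelihood method called 3925 of 12696 genes at an adjusted p below 0.05, or 30.9%. Of these, 2024 (15.9%) were higher with 1-S and 1901 (15.0%) lower. Genes that were called and also differed at least 2-fold on the log2(FPKM + 1) scale, which understates the change of weakly expressed genes, numbered 797 (6.28%), of which 521 were higher (4.1%) and 276 lower (2.17%). With 1 library a side, the test takes its spread from the vehicle libraries and assumes that the 1-S library varies like them. The standard error of a fitted log2 change had a median of 0.22 over genes. A fitted change also draws on the vehicle libraries of round 1, so it can differ from the ratio of the 2 dark libraries. In 44 of the 3925 called genes it was over 1.5 times the log2 ratio of these 2 libraries. The count depends on that spread: DESeq2 called 1569 genes, edgeR without a term for round called 18, and leaving out 1 vehicle library gave 2768 to 6619 with vehicle libraries pooled across light. In the authors' deposited table for the same pair of libraries, 603 genes passed an adjusted p of 0.05 with a higher value in 1-S and 247 with a lower one. Of those listed, 550 were among the genes tested here, and all 550 were called here in the same direction.

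**Figure D1:**
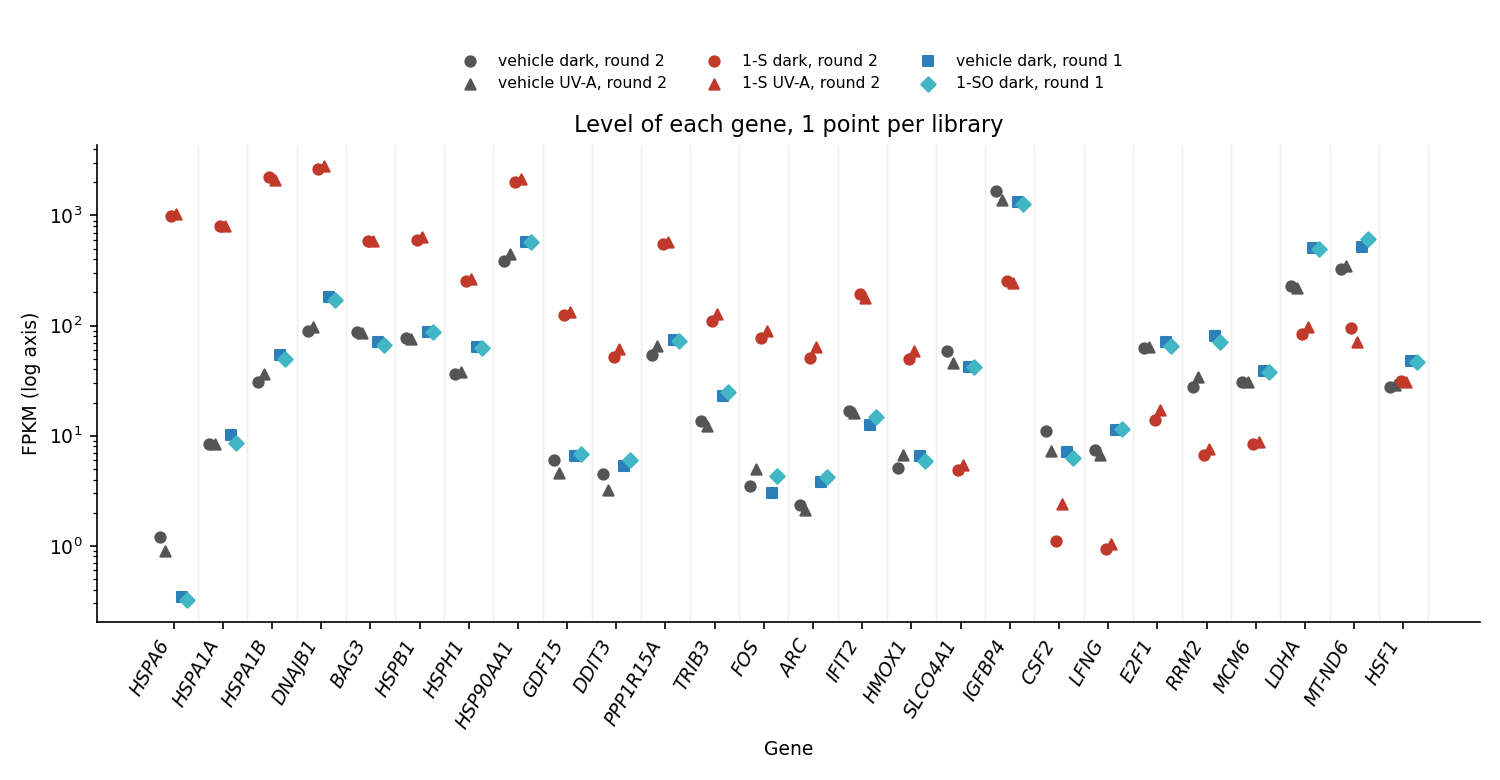
FPKM of 26 genes (log axis), 1 point per library, for vehicle (grey) and 1-S (red) in round 2 and vehicle (blue) and 1-SO (turquoise) in the dark of round 1; circles, squares and diamonds are dark libraries and triangles are UV-A libraries. HSPA6 sits at 987 FPKM in 1-S dark and at 1.2 in vehicle dark, whereas HSF1, at the right, sits at 31.5 and 27.6.

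The inducible HSP70 genes HSPA6, HSPA1A and HSPA1B had the highest differences of all genes tested on the log2(FPKM + 1) scale. By the fitted change CRYAB, SNAI1 and GADD45G, with few reads in vehicle, stood above HSPA1A and HSPA1B. HSPA6, an HSP70 that is nearly silent in unstressed cells (ENSG00000173110, GRCh38 chromosome 1, 161524540 to 161526910), stood at 1.2 FPKM in vehicle dark and 987 in 1-S dark. In the UV-A libraries of the round it stood at 0.892 and 1022. Its fitted log2 fold change was 9.99 ± 0.35 (SE, n = 1 library a group, edgeR adjusted p = 9.8e-18). HSPA1A (chromosome 6, 31815464 to 31817946), the main stress-induced HSP70, was at 8.39 FPKM in vehicle dark and at 810.1 in 1-S dark. HSPA1B (chromosome 6, 31827735 to 31830255) was at 30.5 and 2223 FPKM. Both 1-S libraries lay far above both vehicle libraries for these genes. HSPA1A and HSPA1B are near-identical copies, so that the division of reads between them is uncertain. HSPH1, an HSP110 that recharges HSP70 with ATP, was at 36.3 FPKM in vehicle dark and 253.9 in 1-S dark (2.77 ± 0.22, edgeR adjusted p = 2.8e-10). HSPA4L, of the same family, rose from 8.57 to 31.2. The constitutive HSP70 gene HSPA8 was at 368 and 674 FPKM and did not pass the test (edgeR adjusted p = 0.064). Of 11 measured genes of the HSP70 and HSP110 list, 8 rose and 0 fell, beside 15.9% and 15.0% of all genes tested. The median fitted log2 change of the list was 1.83 against 0.00 over all genes tested.

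The co-chaperones that steer HSP70 rose as well. DNAJB1, an HSP40 that delivers substrates to HSP70 (chromosome 19, 14514770 to 14529770), was at 88.9 FPKM in vehicle dark and at 2646 in 1-S dark, a log2 change of 4.78 ± 0.30 (edgeR adjusted p = 2.2e-12). It was the most abundant of the heat shock genes named here in the 1-S dark library. BAG3, which links HSP70 to autophagy, was at 88.2 and 581 FPKM (2.65 ± 0.21). The small heat shock protein HSPB1, which holds unfolded proteins in solution, was at 77.1 and 597.6 FPKM. DNAJB4 rose from 5.47 to 33.8 FPKM. SERPINH1, the collagen chaperone of the endoplasmic reticulum, rose from 29.04 to 106.5 (1.77 ± 0.19). CRYAB, the small heat shock protein of lens and muscle, had 1 read in vehicle dark and 660 in 1-S dark. The ratio of its depth-scaled reads was 682, with an exact 95% counting interval of 122 to 27000. Of 19 measured genes of this list 10 rose and 0 fell, beside 15.9% and 15.0% of all genes tested. HSF1 itself, the factor that drives the response, was at 27.6 and 31.5 FPKM (0.10 ± 0.18, edgeR adjusted p = 0.71), with a 95% interval for its change of -0.27 to 0.47.

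HSP90 and its partners followed at smaller size. HSP90AA1, the inducible HSP90 gene, was at 390.1 FPKM in vehicle dark and at 2025 in 1-S dark (2.28 ± 0.31, edgeR adjusted p = 2.7e-06). The constitutive HSP90AB1 rose from 952 to 2122 (1.02 ± 0.30, edgeR adjusted p = 0.011). AHSA1, which activates the HSP90 ATPase, rose by 1.43 ± 0.18 and CHORDC1, another HSP90 co-chaperone, by 1.48 ± 0.18. Of 13 measured genes of HSP90 and its co-chaperones 7 rose and 0 fell. The shares of all reads show how large this was. The HSP70 and HSP110 list took 0.28% of reads in vehicle dark and 1.64% in 1-S dark, with exact binomial 95% intervals of 0.278 to 0.282% and 1.639 to 1.65%, which cover counting error only. The HSP90 list took 0.666% and 1.99%. Other arms of protein quality control moved less. In the TRiC chaperonin, which folds actin and tubulin, 1 of 8 genes rose (TCP1, 0.58 ± 0.20), and of 29 measured proteasome subunits 0 rose and 4 fell. The shares of all genes tested were 15.9% higher and 15.0% lower. The share of TRiC genes that rose and the share of proteasome subunits that fell were both below these, so neither list stood out from all genes in that direction.

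The promoters of these genes are shown for the binding motifs they hold upstream of the start, since members of the lists moved together. The heat shock element was searched on both strands as 3 units that alternate between GAA and its complement TTC, with 2 free bases between units, in the 300 bases from 250 before to 50 after each RefSeq gene start (GRCh38.p14). It was found in 9 of 1551 promoters of genes called higher (0.58%), in 5 of 371 of those called and at least 2-fold higher (1.35%) and in 29 of 9644 of all genes tested (0.301%). On the lower side it was in 4 of 1531 promoters (0.261%), and in 2 of 203 of those at least 2-fold lower (0.985%). Over all 35116 promoters of the table the share was 0.49%. The capitals below mark the units, and the 3 genes shown are HSP70, collagen chaperone and HSP90 co-chaperone genes that rose.
HSPA6, plus strand of chr1:161524456-161524488: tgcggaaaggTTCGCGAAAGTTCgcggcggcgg
SERPINH1, plus strand of chr11:75562167-75562199: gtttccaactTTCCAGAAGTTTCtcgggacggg
CHORDC1, minus strand of chr11:90223077-90223119, with 3 overlapping matches: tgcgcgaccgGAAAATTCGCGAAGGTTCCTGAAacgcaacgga
The last capital lies 62 bases before the start in HSPA6, 64 in SERPINH1 and 38 in CHORDC1.

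The shorter form with 2 units, GAANNTTC or TTCNNGAA, overlaps the longer one by construction and was chosen after the longer form had been counted. It was found in 157 of 1551 promoters of genes called higher (10.1%), in 49 of 371 of those at least 2-fold higher (13.2%), and in 938 of 9644 of all genes tested (9.73%). Among the called higher members it was in 4 of 8 of the HSP70 and HSP110 list, in 4 of 9 of the HSP40 and small heat shock list and in 1 of 6 of the HSP90 list. HSPA1A and HSPA1L, which run in opposite directions, share 1 of these stretches, so the first count holds it more than once. Examples are shown from heat shock genes that rose and held this form before the start, with the units in capitals.
HSPA1A, plus strand of chr6:31815427-31815454: gaaaaccctgGAATATTCccgacctggc
HSPA1B, plus strand of chr6:31827623-31827650: gaaacccctgGAATATTCccgacctggc
HSPB1, plus strand of chr7:76302481-76302508: cttaacgagaGAAGGTTCcagatgaggg
HSPB8, plus strand of chr12:119178833-119178860: catcacctccGAATATTCctgtgacagg
DNAJA1, plus strand of chr9:33025065-33025092: aagggctccaGAAGATTCcacgagcgcc
HSPB8 rose from 0.109 to 2.03 FPKM (4.12 ± 0.53) and DNAJA1 from 119 to 257 FPKM (1.04 ± 0.20). A match is a description of the letters and not a measured binding site.

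Targets of ATF4 rose in 27 of 34 measured cases and 1 fell, beside 15.9% and 15.0% of all genes tested. Their median fitted log2 change was 1.63. GDF15, a secreted stress cytokine (chromosome 19, 18374731 to 18389176), stood at 6.03 FPKM in vehicle dark, 125 in 1-S dark, 4.54 in vehicle UV-A and 133 in 1-S UV-A. The 1-S libraries were both far above the vehicle libraries, and the log2 change in the dark was 4.26 ± 0.20 (edgeR adjusted p = 5.1e-15). DDIT3, which encodes the transcription factor CHOP, went from 4.48 to 52.2 FPKM (3.58 ± 0.25) and the pseudokinase TRIB3 from 13.5 to 109.9. PPP1R15A, which returns eIF2 to its active form, went from 54.2 to 545.6 FPKM (3.35 ± 0.22, edgeR adjusted p = 5.9e-12). Enzymes and transporters of amino acid supply were among those that rose, with CTH, which makes cysteine, at 7.196 and 47.1 FPKM and the heavy chain SLC3A2 of amino acid exchangers at 59.7 and 236.5. So were tRNA synthetases, with AARS at 42.6 and 131.5 FPKM (1.61 ± 0.19). ATF4 mRNA itself rose less, from 118 to 235 FPKM (0.88 ± 0.20, edgeR adjusted p = 0.0018). ATF5, a related factor, was the member that fell, from 6.96 to 4.96 FPKM (edgeR adjusted p = 0.049).

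The amino acid response element TGATGNAA, to which ATF4 dimers bind, was searched in the same window on both strands. It was in 6 of 23 promoters of ATF4 list members that rose (26.1%), in 40 of 1551 of all genes called higher (2.58%), in 20 of 1531 called lower (1.31%) and in 158 of 9644 genes tested (1.64%). The share over all 35116 promoters was 3.62%. The list was drawn up from known targets, so its share is no independent result. The element is in capitals in 4 that lie before the start.
ASNS, minus strand of chr7:97872459-97872486: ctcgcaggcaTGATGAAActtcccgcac
CHAC1, plus strand of chr15:40953252-40953279: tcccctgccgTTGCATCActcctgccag
ATF3, plus strand of chr1:212565206-212565233: aaggtcaggaTGATGGAAggctgtcata
AARS, minus strand of chr16:70289676-70289703: tttctcgcagTTGCATCAgccaagttag
CHAC1, which degrades glutathione, rose from 5.02 to 34.2 FPKM (2.78 ± 0.21), and the stress-induced repressor ATF3 from 1.90 to 18.9 (3.37 ± 0.23).

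The endoplasmic reticulum response was narrower. Of 23 measured genes 6 rose and 1 fell, beside 15.9% and 15.0% of all genes. HSPA5, the HSP70 of that compartment, was at 332 FPKM in vehicle dark and at 1716 in 1-S dark (2.32 ± 0.27, edgeR adjusted p = 3.5e-07). HERPUD1, which serves protein removal there, rose from 16.6 to 76.6. The related chaperone HSP90B1 was at 297 and 327 FPKM (0.16 ± 0.25, edgeR adjusted p = 0.67) and calreticulin, CALR, at 501 and 473. Oxidant and metal defence also moved in part. Of 25 NRF2 targets 9 rose and 3 fell. HMOX1, which breaks down haem, rose from 5.14 to 50.2 FPKM (3.25 ± 0.20) and the ferritin light chain FTL from 1336 to 3946, whereas NQO1, a classical NRF2 target, was at 52.9 and 55.3 (0.29 ± 0.23, edgeR adjusted p = 0.36). Of 7 measured metallothionein and zinc genes 3 rose and 1 fell. The metal-sensing factor MTF1 went from 4.66 to 9.80 FPKM and the zinc exporter SLC30A1 from 7.88 to 19.04. The metallothionein MT1X rose from 0.15 to 1.88 FPKM and MT1A fell from 2.97 to 0.657, both on few reads, while MT2A was at 971 and 1042 FPKM and did not pass. Of 27 autophagy and lysosome genes 12 rose and 1 fell, led in level by the cargo receptor SQSTM1 at 41.4 and 112 FPKM (1.56 ± 0.23) and by MAP1LC3B, which coats autophagosomes, at 23.6 and 75.9.

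Immediate early genes, which respond to signals without new protein synthesis, rose in 21 of 28 cases and fell in 1. FOS, a subunit of the AP-1 factor, stood at 3.52 FPKM in vehicle dark, 77.1 in 1-S dark, 4.98 in vehicle UV-A and 88.8 in 1-S UV-A. Its log2 change in the dark was 4.60 ± 0.21 (edgeR adjusted p = 5.1e-15). ARC, best known from neurons, went from 2.37 to 50.9 FPKM and EGR1, a zinc finger factor, from 38.9 to 186. RGS2, a brake on G-protein signalling, went from 1.92 to 51.0 FPKM (4.80 ± 0.24). Of 14 genes of MAP kinase feedback 7 rose (50.0%) and 3 fell (21.4%), and the share that fell was not far from that of all genes. DUSP1, a nuclear phosphatase of stress kinases, rose from 22.6 to 203.5 FPKM (3.03 ± 0.19), while DUSP6, which acts on ERK, fell from 117 to 36.0 (-1.73 ± 0.22) and SPRY1, a receptor kinase antagonist, from 24.7 to 5.01 (-2.35 ± 0.21).

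Single genes that check growth or promote death rose, while most members of their lists did not. Of 16 measured G1 cyclins and CDK inhibitors 3 rose (18.8%) and 5 fell (31.2%). Of 14 genes of the BCL2 family 4 rose (28.6%) and 1 fell (7.14%). Over all genes tested the shares were 15.9% higher and 15.0% lower. The risers of the first list included a cyclin gene, CCND2, which went from 1.83 to 7.73 FPKM (2.16 ± 0.24). GADD45G, a stress sensor, had 7 reads in vehicle dark and 923 in 1-S dark, or 0.235 and 32.0 FPKM, a ratio of depth-scaled reads of 136 with a counting interval of 65.8 to 340. The cell cycle inhibitor CDKN1A went from 41.7 to 185.5 FPKM (2.11 ± 0.19) and CDKN1C, of the same class, from 2.96 to 28.6 (3.67 ± 0.31). In the BCL2 family the BH3-only genes BBC3 and PMAIP1 rose by 1.77 ± 0.23 and 1.11 ± 0.18, while BCL2L1, which protects from apoptosis, fell from 149 to 64.5 FPKM (-1.31 ± 0.22). SNAI1, a repressor of epithelial genes, had 6 reads and 958 reads, or 0.158 and 26.0 FPKM. Its relative SNAI2 was at 6.25 and 4.45 FPKM and did not pass (edgeR adjusted p = 0.076).

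Interferon-stimulated genes rose in 12 of 21 measured cases and fell in 1. IFIT2, an RNA-binding antiviral protein (chromosome 10, 89301955 to 89309276), was at 16.8 FPKM in vehicle dark, 193 in 1-S dark, 15.9 in vehicle UV-A and 180 in 1-S UV-A, with a log2 change of 3.46 ± 0.19 in the dark (edgeR adjusted p = 9.6e-14). IFIT1 went from 7.43 to 63.9 FPKM and OASL, of the oligoadenylate synthetase family, from 1.73 to 23.4. OAS3, of the same family, was the member that fell, from 5.30 to 2.47 FPKM. Of 21 genes of NF-kB and cytokines 7 rose and 4 fell, beside 15.9% and 15.0% of all genes tested. PTGS2, which makes prostaglandins, rose from 2.25 to 12.01 FPKM, and the growth factor CSF2 fell from 11.1 to 1.11 FPKM (-3.47 ± 0.51, edgeR adjusted p = 8.7e-06).

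**Figure D2:**
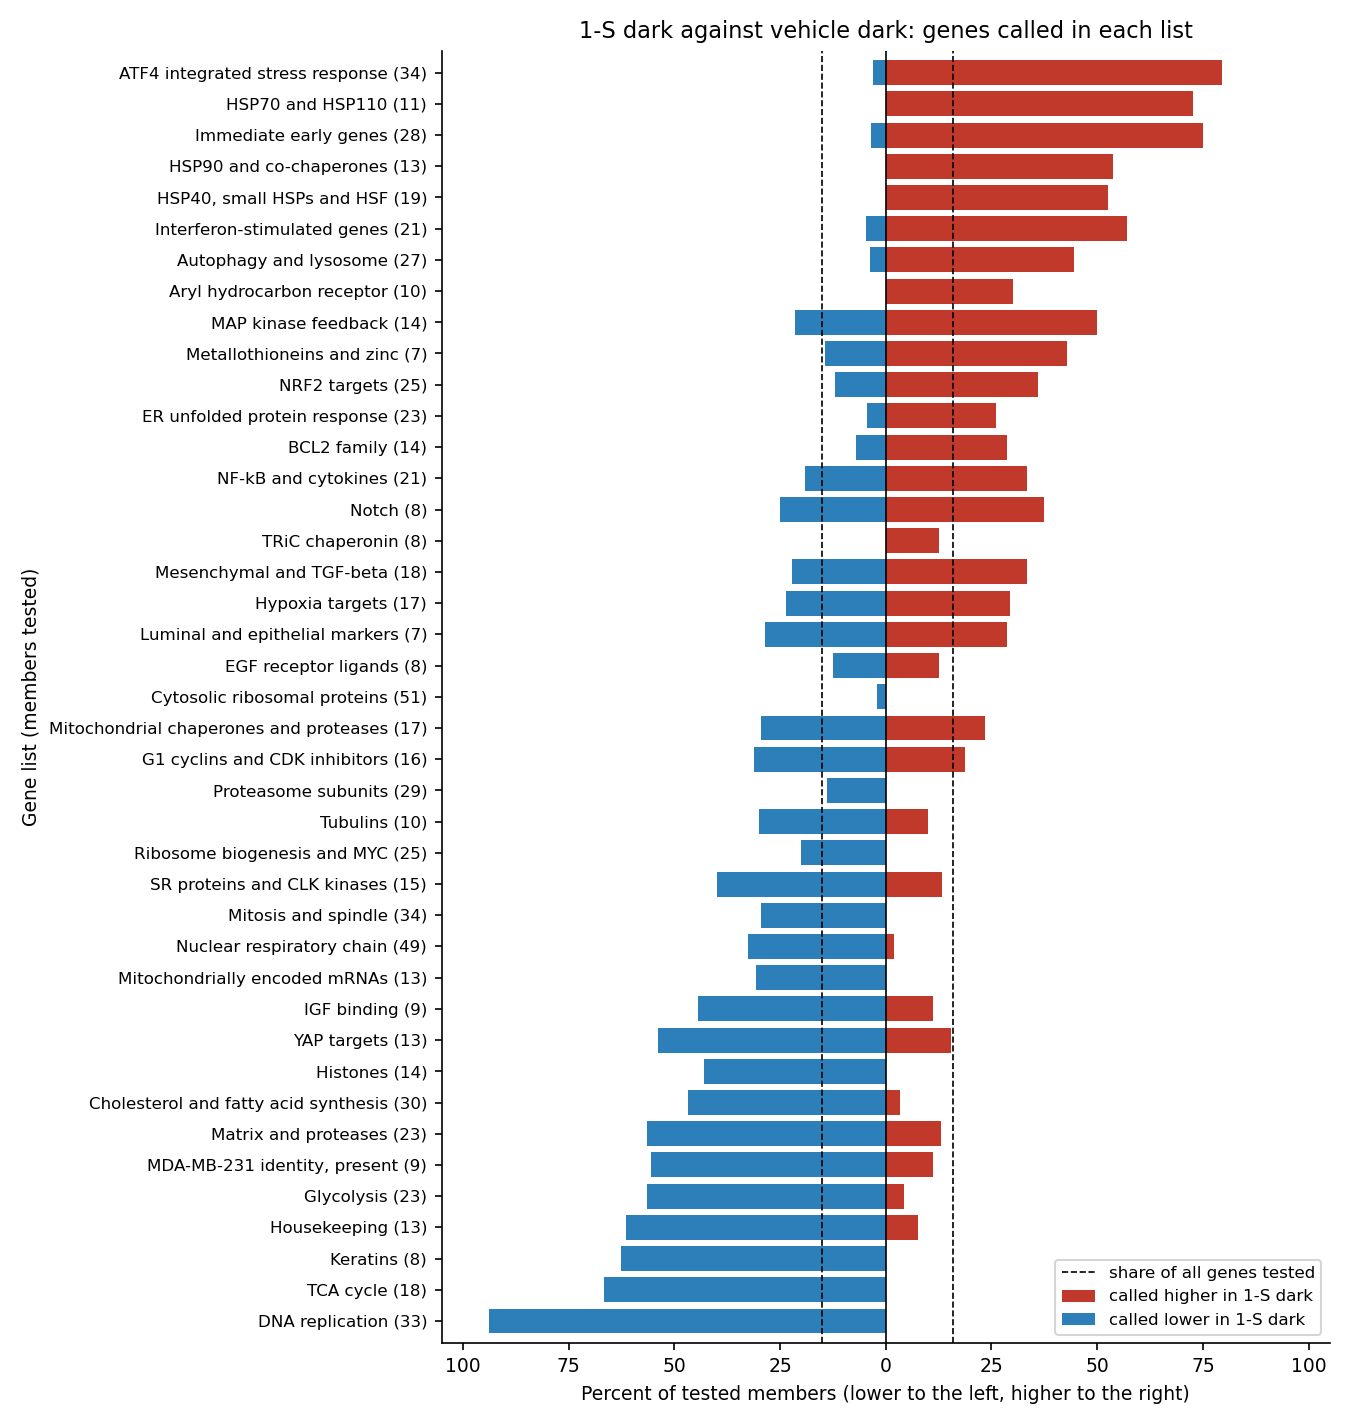
Percent of the tested members of the gene lists shown called higher (red, to the right) or lower (blue, to the left) in 1-S dark against vehicle dark, with the number tested in brackets. The dashed lines are the shares of all genes tested, 15.9% higher and 15.0% lower; the ATF4 list lies farthest to the right and DNA replication, with 31 of 33 lower, farthest to the left.

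DNA replication was the list with the largest share of members lower. Of 33 measured genes 31 fell and 0 rose, with a median fitted log2 change of -1.39 and 15.0% of all genes lower. E2F1, a transcription factor of entry into S phase (chromosome 20, 33675683 to 33686404), stood at 62.2 FPKM in vehicle dark, 13.9 in 1-S dark, 63.9 in vehicle UV-A and 17.1 in 1-S UV-A. Both 1-S libraries were below both vehicle libraries, and the log2 change in the dark was -2.51 ± 0.26 (edgeR adjusted p = 3.4e-08). The log2 ratio of depth-scaled reads of E2F1 between the 2 dark libraries was smaller in size, at -2.19. RRM2, which makes deoxynucleotides, fell from 27.7 to 6.63 FPKM (-2.32 ± 0.23). The helicase subunits MCM6 and MCM3 fell from 30.6 to 8.43 and from 110.4 to 34.5. Genes of mitosis moved less. There 10 of 34 fell and 0 rose, with the topoisomerase TOP2A at 132 and 62.9 FPKM (-1.08 ± 0.22), but CDC20, which starts anaphase, at 96.96 and 96.95. Among G1 regulators cyclin E2, CCNE2, fell from 4.01 to 0.875 FPKM and cyclin D1, CCND1, from 222 to 87.1. Histone genes fell in 6 of 14 cases, which in a poly-A library covers only the polyadenylated part of histone mRNA.

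Many mRNAs of the main routes of energy metabolism were lower, while metabolism itself was not measured. Over all genes tested 15.0% were called lower and 15.9% higher. Of 18 genes of the citric acid cycle 12 fell and 0 rose, with fumarase, FH, at 55.2 and 30.1 FPKM (-1.03 ± 0.19, edgeR adjusted p = 0.00022). Of 23 glycolysis genes 13 fell and 1 rose. LDHA, which turns pyruvate into lactate, fell from 229.7 to 84.2 FPKM (-1.65 ± 0.26) and the enolase ENO1 from 767 to 348, whereas the glucose transporter SLC2A3 rose from 9.88 to 35.6 (1.95 ± 0.19). Of 49 nuclear genes of the respiratory chain 16 fell and 1 rose, and their median was -0.43. Mitochondrial chaperones went both ways, with HSPD1, the HSP60 of mitochondria, up from 111 to 258.5 FPKM (1.03 ± 0.23) and TRAP1, the mitochondrial HSP90, down from 7.19 to 3.83 (-1.14 ± 0.25). In cholesterol and fatty acid synthesis 14 of 30 fell, among them the desaturase SCD, which went from 327 to 151.5 FPKM.

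**Figure D3:**
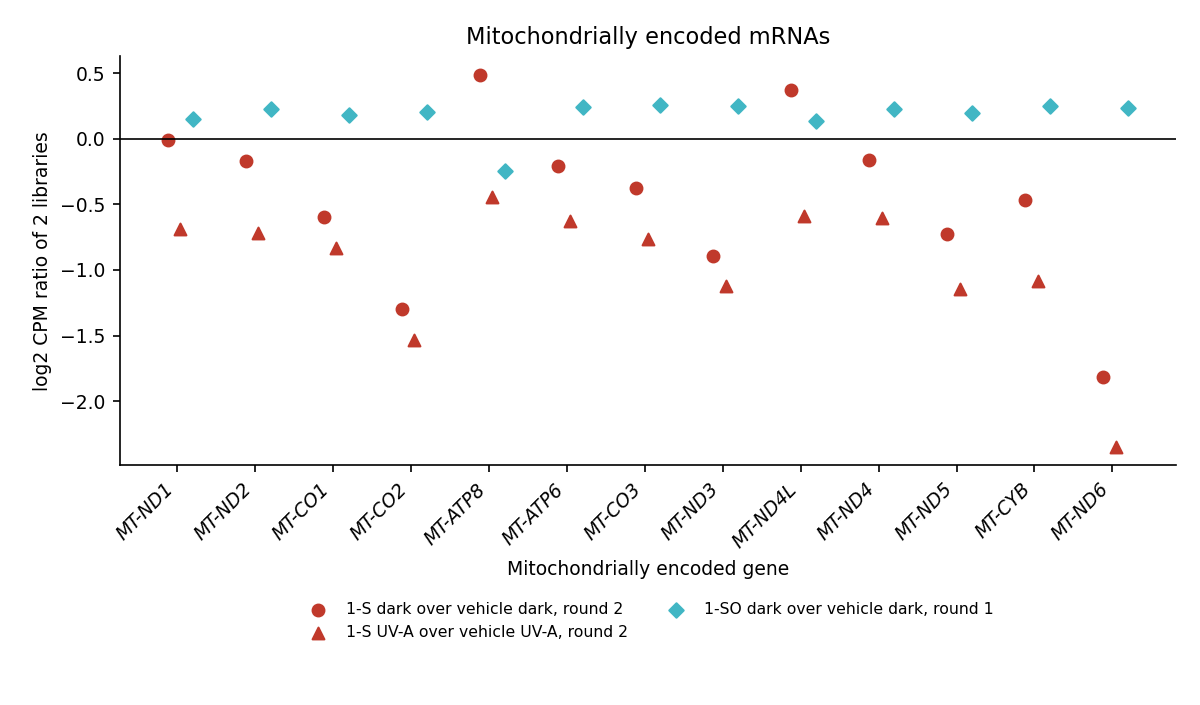
Log2 ratio of CPM (reads scaled to the library's total) of the 13 mitochondrially encoded mRNAs between 2 libraries, for 1-S in the dark (circles), 1-S with UV-A (triangles) and 1-SO in the dark (diamonds). MT-ND6 and MT-CO2 lie lowest in both 1-S pairs, and every triangle lies below its circle.

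The mitochondrial genome encodes 13 subunits of the machinery that makes ATP by respiration, copied as long transcripts that are then cut. In the dark 4 of the 13 mRNAs fell (30.8%) and 0 rose, with a median of -0.42. Over all genes tested 15.0% were lower and 15.9% higher. MT-ND6, the one subunit gene on the other strand (mitochondrial genome, GRCh38), was at 326 FPKM in vehicle dark, 95.3 in 1-S dark, 345 in vehicle UV-A and 71.0 in 1-S UV-A. Its log2 change was -1.86 ± 0.19 (edgeR adjusted p = 4.2e-08). No source used here says if reads were counted by strand, so its reads cannot be told apart from antisense RNA. MT-CO2, a cytochrome oxidase subunit, fell from 4971 to 2082 FPKM (-1.30 ± 0.29, edgeR adjusted p = 0.0012). MT-ND3 fell from 1233 to 684. MT-ND1 was at 1224 and 1252 FPKM and MT-ND4 at 2669 and 2451, and neither passed the test. The 13 mRNAs took 2.38% of reads in vehicle dark, 1.77% in 1-S dark, 2.42% in vehicle UV-A and 1.40% in 1-S UV-A. In all 13 the ratio of 1-S to vehicle was lower in the UV-A pair than in the dark pair. The 13 come from the same libraries and from shared long transcripts, so they are not 13 separate observations. No single gene passed the test of the fitted difference, which also draws on vehicle libraries of round 1. For MT-ND3 the log2 CPM ratios were -0.89 in the dark and -1.12 with UV-A, but the fitted dark minus UV-A difference was -0.06.

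Matrix genes were among those that were lower, and of all genes tested 15.0% were lower and 15.9% higher. Of 23 matrix and protease genes 13 fell and 3 rose, with the plasminogen activator PLAU at 106.8 and 29.1 FPKM (-2.22 ± 0.26) and the inhibitor TIMP3 at 139 and 38.4. SLCO4A1, an organic anion transporter (chromosome 20, 62642445 to 62685785), had the lowest log2(FPKM + 1) difference of the called protein-coding genes. It was at 59.3 FPKM in vehicle dark, 4.88 in 1-S dark, 45.7 in vehicle UV-A and 5.47 in 1-S UV-A, a log2 change of -3.70 ± 0.21 in the dark (edgeR adjusted p = 3.4e-13). IGFBP4, which binds insulin-like growth factors, fell from 1678 to 253.1 FPKM (-2.87 ± 0.30), and LFNG, which adds sugars to Notch, from 7.36 to 0.938 (-3.32 ± 0.37). F2RL1, a protease-activated receptor, the semaphorin receptor PLXNA1, the integrin chain ITGB5, tissue plasminogen activator PLAT, the phosphatase SYNJ2 and the prostaglandin synthase PTGES completed the 12 lowest, with fitted changes of -2.30 to -2.17. Of 13 YAP targets 7 fell (53.8%) and 2 rose (15.4%), with ANKRD1 at 484.6 and 186 FPKM. The share of YAP targets that rose was near that of all genes tested. Markers of the line itself fell in 5 of 9 measured cases and rose in 1, ANXA1, which binds membranes and went from 86.2 to 169 FPKM (0.98 ± 0.21). Among those that fell was S100A4, a calcium-binding protein, at 221 and 68.7 FPKM (-1.81 ± 0.19), while vimentin, VIM, was at 221 and 219 (-0.11 ± 0.24).

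Genes often used as references were not steady. Of 13, 8 fell and 1 rose, beside 15.0% lower and 15.9% higher over all genes tested. Actin, ACTB, was at 1330.0 FPKM in vehicle dark and 616 in 1-S dark (-1.26 ± 0.32, edgeR adjusted p = 0.0035), and GAPDH fell from 576 to 387 (-0.74 ± 0.26). TBP, at 14.9 and 12.49 FPKM, and B2M, at 95.4 and 81.6, did not pass. Of 51 cytosolic ribosomal protein genes 0 rose and 1 fell, and the list took 2.55% of reads in vehicle dark and 2.61% in 1-S dark. In bulk RNA a fall of a gene's share can also come from a rise of others, and counts per cell were not measured.

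RNAs that code for no protein were 1440 of the genes tested, of which 171 rose (11.9%) and 71 fell (4.93%), beside 15.9% and 15.0% of all genes tested. The highest 3 among those called were the small nucleolar RNA gene SNORD3B-2, at 2.02 and 13.8 FPKM, RP11-396M11.1, at 0.23 and 4.99, and AC079781.5, at 2.16 and 13.0. The lowest 3 were RPL38P4, a processed pseudogene with 17 reads in vehicle dark and 0 in 1-S dark, AC137932.6, at 6.09 and 1.08 FPKM, and RP13-463N16.6, at 3.75 and 0.394. Pseudogenes can share reads with their parent genes, which makes their values uncertain.

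The same compound with UV-A is the closest comparison within the round and uses none of the libraries of the dark pair. The log2 CPM ratios of the dark pair and of the UV-A pair correlated at r = 0.858 across the 12696 genes tested, and genes are no independent replicates. Of 837 genes at least 2-fold different in the dark pair, 815 had the same direction in the UV-A pair and 638 were also at least 2-fold different there. In the UV-A pair 629 genes (4.95%) were at least 2-fold higher and 388 (3.06%) lower, beside 545 (4.29%) and 292 (2.3%) in the dark. UV-A alone in vehicle cells of the round gave 11 (0.0866%) and 14 (0.11%).

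**Figure D4:**
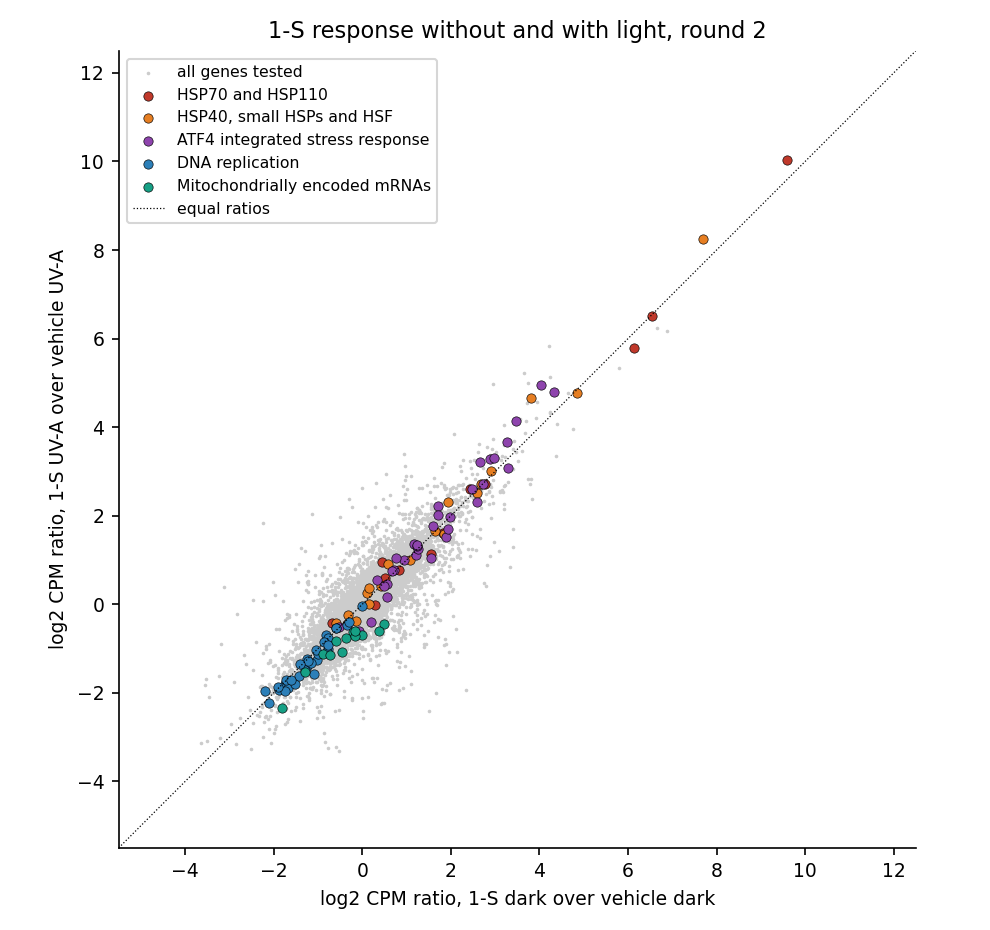
Log2 CPM ratio of 1-S over vehicle in the dark (horizontal) and with UV-A (vertical) for the 12696 genes tested (grey), with 5 gene lists coloured; the dotted line marks equal ratios. The heat shock genes at the upper right lie near the line, and the mitochondrially encoded mRNAs lie below it.

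A test of the difference between the effect in the dark and the effect under UV-A called 0 of 12696 genes (0.0%) in edgeR, with 285 at an unadjusted p below 0.05. In DESeq2 the numbers were 0 and 43, and in limma-trend they were 6 and 323. The 95% interval of such a difference had a median half-width of 0.60 on the log2 scale, so that in most genes smaller differences were not detectable. For HSPA1A the difference was 0.10, with an interval of -0.47 to 0.68. For DNAJB1 it was -0.07 (-0.84 to 0.70) and for IFIT2 0.01 (-0.49 to 0.50). The fit holds 1 vehicle light response for both rounds, so vehicle libraries of round 1 also enter these differences. For E2F1 the log2 CPM ratios were -2.19 in the dark pair and -1.97 in the UV-A pair, and the fitted difference was -0.80. For FOS the ratios were 4.4 and 4.08 and the fitted difference 0.70, and for CDKN1C they were 3.21 and 4.04 and 0.19. Intervals that left out 0 included those of GDF15 (-1.13 to -0.09), SLCO4A1 (-1.13 to -0.11), E2F1 (-1.44 to -0.16) and FOS (0.13 to 1.27). Those of NOTCH1 (0.24 to 1.19), S100A4 (-1.22 to -0.23) and CSF2 (-3.26 to -0.57) did so too, as did some other named genes. None of them passed the edgeR test after adjustment.

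The comparison with 1-SO in the dark matched dose, time and light, and the named structural change is the oxo group on sulfur. It is 1 pair of compounds, each against the vehicle of its own round, and compound, round and passage cannot be told apart. The test of the difference between the effects called 2181 genes (17.2%), 1114 with the higher change in 1-S (8.77%) and 1067 with the lower (8.4%). By size 1-SO in the dark differed from its vehicle at least 2-fold in 9 genes higher (0.0709%) and 11 lower (0.0866%). HSPA6 was at 0.342 FPKM in the vehicle dark library of round 1 and at 0.319 with 1-SO, against 1.2 and 987 in the 1-S pair, a difference of effects of 10.86 on the log2 scale (95% interval 9.66 to 12.06, edgeR adjusted p = 4.1e-13). DNAJB1 was at 182 and 169 FPKM with 1-SO, and the effects differed by 4.82 ± 0.40 (SE, edgeR adjusted p = 2.3e-09). GDF15 was at 6.50 and 6.80 FPKM (difference 4.15, interval 3.58 to 4.71) and E2F1 at 71.0 and 64.9 (difference -2.62, interval -3.26 to -1.99). IGFBP4 was at 1319 and 1277 FPKM (difference -2.89, interval -3.64 to -2.15). For HSF1 the difference was 0.11 with an interval of -0.38 to 0.59, for ATF4 0.75 (0.20 to 1.30, edgeR adjusted p = 0.055) and for NFE2L2, which encodes NRF2, 0.47 (-0.01 to 0.95). Across genes the log2 ratios of the 1-S dark pair and the 1-SO dark pair, which share no library, correlated at r = 0.042.

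**Figure D5:**
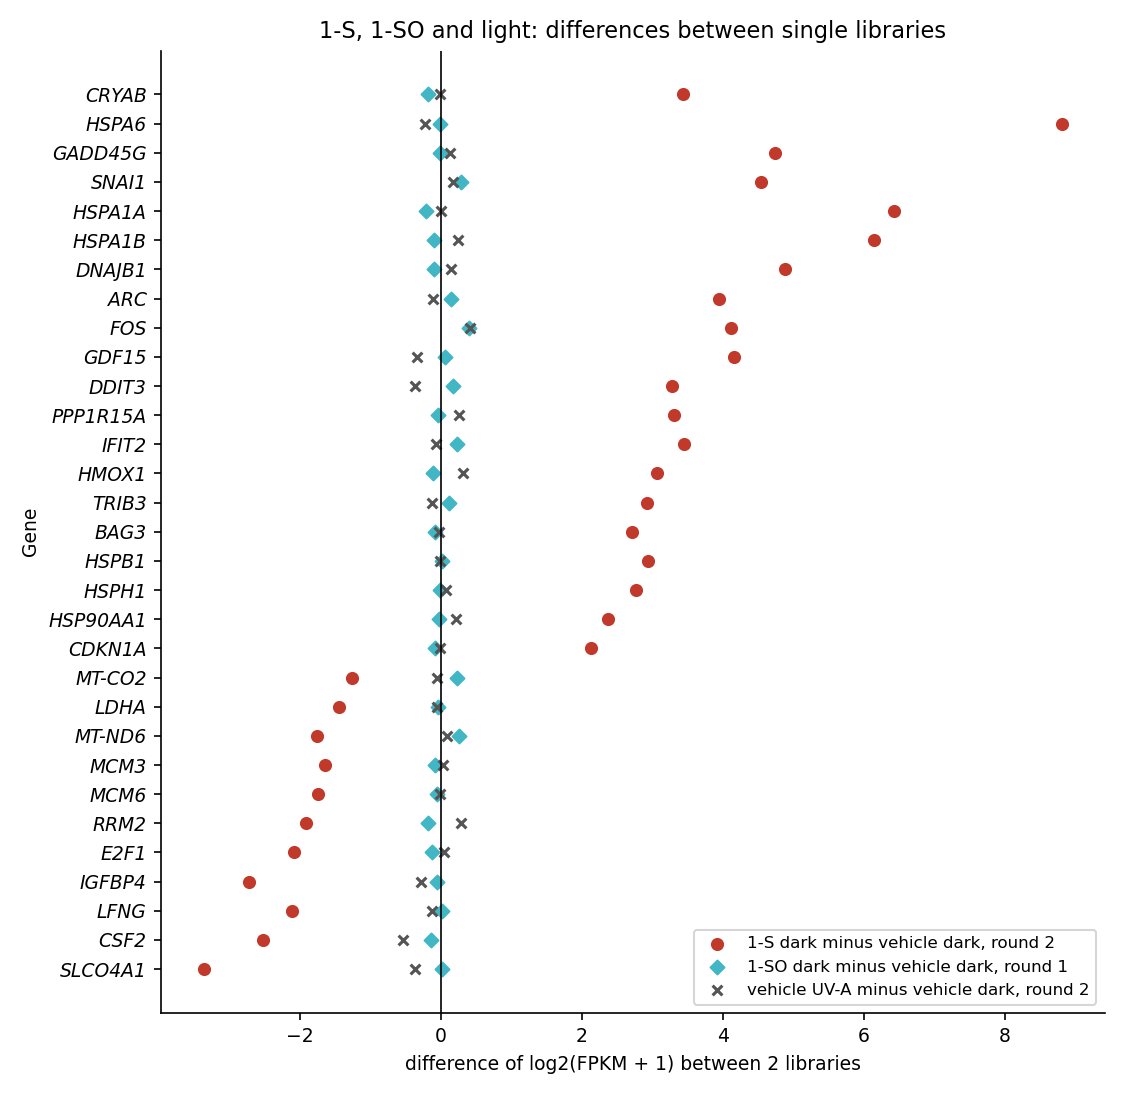
Difference of log2(FPKM + 1) between 2 libraries for 31 genes, for 1-S dark against vehicle dark (red), 1-SO dark against vehicle dark of round 1 (turquoise) and vehicle UV-A against vehicle dark of round 2 (grey crosses). The red points lie between -3.36 for SLCO4A1 and 8.81 for HSPA6, and the turquoise points stay close to the line at 0.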

How the data were processed

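Counts per gene were deposited by the authors as whole numbers, not normalized, 1 column per library per the file headers, and were used as deposited. The authors' deposited FPKM equal reads scaled to gene length and to the library's sum, as a recalculation showed. The authors' deposited comparison table gives a log2 fold change and a p-value per gene, and its calls are quoted only as such. Per the submitters' processing notes the tools were STAR 2.5, HTSeq 0.6.1, TopHat, STAR-Fusion, DESeq2 and edgeR 3.16.5, with no role given. Coordinates of round 2 were those of GENCODE 29 on GRCh38 for 95.2% of 58676 genes.

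The genes tested had 1 FPKM or more in no fewer than 2 of the 8 libraries and numbered 12696 of the 45341 whose identifiers the rounds share. edgeR 4.0.16 in R 4.3.3 fitted the counts of all 8 libraries with TMM factors within each round and one term each for the round, the vehicle's light response and every compound group. The 1 residual degree of freedom is how far the vehicle's light response differs between rounds, and 26 prior ones add to it. A compound library has no replicate, so no spread between compound wells enters a p-value. P-values were two-sided and adjusted with the Benjamini-Hochberg method over all 12696. On simulated data of 12696 genes for the 1-S dark contrast, 69 of 100 genes changed 2-fold and 92 of 100 changed 4-fold were called, with 14 false calls. The simulation gave all genes the same relative spread, no light effect and a 1-S library that varied like the vehicle libraries. Its rates hold for that setting and were not measured for the real data.

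The members and the 43 gene lists were chosen with earlier results of these data known. Named were the 12 highest and 12 lowest called protein-coding genes by log2(FPKM + 1) difference, up to 4 members a list, 3 noncoding genes each way, 21 regulators and 6 genes each way for each test of a difference, and further list members chosen after their values were seen. Some genes are not reported here. Reads of 0 allow up to 3 reads, or 0.133 to 0.19 CPM. Alternatives were DESeq2 1.42.0, limma-trend 3.58.1, other scaling and filters, other pseudocounts, other control libraries and no term for round.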

Additional observations from a re-analysis of the deposited data

Results flagged for a closer look

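The effect of 1-S in the dark differed from that of 1-SO in the dark by the test of the difference itself, in 2181 genes. Compound, round and passage cannot be told apart in all of these. The differences on the log2 scale were 10.86 for HSPA6, 6.86 for HSPA1A, 6.21 for HSPA1B, 7.13 for GADD45G and 6.71 for SNAI1. For CRYAB the fitted value was 13.86, but the 1-SO dark library had 0 reads of it and the value depends on the prior count, so it is no measure of size. On the lower side they were -3.75 for SLCO4A1, -3.57 for LFNG, -3.41 for CSF2, -2.89 for IGFBP4, -2.70 for SERTAD4 and -2.62 for E2F1.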

How the results depend on the processing

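The number of genes called rests on the vehicle libraries and on how the spread is estimated. Against 3925 genes called, DESeq2 called 1569, of which 1566 were among the 3925. With round 2 alone and its vehicle libraries pooled across light the number was 6623, and leaving out 1 vehicle library in turn, with the vehicle libraries pooled across light, gave 2768 to 6619. It was 3121 without vehicle dark replicate 2, 2768 without vehicle UV-A replicate 2, and 6619 and 6605 without vehicle dark and vehicle UV-A replicate 1. The labels pair no 1-S library with a second round. The round served as the replicate block of the vehicle libraries, and with no replicate block 18 genes were called, all 18 of them higher and at least 2-fold. Otherwise 605 to 832 genes were called and at least 2-fold, against 797. The size rule took the same difference between the 1-S dark and vehicle dark libraries of round 2 in every setting. It did so even where vehicle dark replicate 2 was left out of the fit. The closeness of these counts therefore comes in part from the shared rule. For the difference between 1-S in the dark and with UV-A, 0 genes became 6 with limma-trend, 3 with no filter and 5 with a minimum of 5 FPKM. For the difference from 1-SO, DESeq2 called 634 in place of 2181. The 837 genes at least 2-fold by size became 1655 with a pseudocount of 0.1, 293 with a pseudocount of 5 and 1693 by the CPM ratio.

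Of 175 named genes that were called, 146 also passed in DESeq2, 166 in limma-trend and 15 with no replicate block. Changes near 0 turned sign: CCT3 (-0.02 with no filter, -0.01 with no replicate block, -0.01 without vehicle dark replicate 2), CCT4 (-0.01 with no filter), and with no replicate block RPS27 (-0.02), AHR (-0.02) and AREG (0.35). By the difference of the libraries themselves the list medians were 0.10 for metallothioneins and zinc, 0.06 for cytosolic ribosomal proteins and 0.09 for mesenchymal and TGF-beta genes, each of the other sign than the fitted median. The cause was not tested.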

Other observations

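Among protein-coding genes those with 1 exon were called higher in 13.3% and lower in 21.7% of 166 cases, those with 2 to 4 exons in 21.0% and 13.9% of 1549, those with 5 to 9 in 16.4% and 14.2% of 3855, and those with 10 or more in 15.3% and 18.1% of 5686. Over all 11256 protein-coding genes tested the shares were 16.5% and 16.3%. The gene DLL1, a Notch ligand under the filter on low values, was at 0.0137 FPKM in vehicle dark and 0.993 in 1-S dark, and at 0.0570 and 0.699 with UV-A. UHRF1, a replication gene whose identifier the rounds do not share, was at 27.99 and 7.12 FPKM, and at 34.3 and 7.17 with UV-A.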
